A study of Mus musculus with 4 samples.

Results

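In liver RNA of Alkbh5-HKO mice, 1274 genes carried an m6A peak in the HKO list and had no row in the list of the floxed controls, here called HKO-only genes. They held 1486 peaks, which is 10.1% of the 14693 HKO peaks, and made up 14.9% of the 8565 genes in the HKO list and 13.2% of the 9650 genes with a peak in either list. Members were found by gene symbol: a peak belonged to the set if its symbol occurred in the HKO list and in no row of the FF list. Members were thus chosen by presence of a peak in one list and absence from the other, both read at the authors' q-value threshold of 0.05, so the strength and number of these peaks in the HKO list are given as a description. The mirror set, genes with a peak in FF and none in HKO, held 1085 genes (11.2%) with 1227 peaks, and 7291 genes had peaks in both lists.

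The study compared livers of Alkbh5flox/flox mice (FF) with livers of Alkbh5-HKO mice, all 9 weeks old and on normal chow, in order to map the m6A changes that follow loss of ALKBH5. For each genotype 300 μg of RNA from 3 mice was pooled, cut into fragments of about 100 nt and precipitated for 2 h with an m6A antibody, and the precipitate (IP) and its input were sequenced as paired reads of 150 bp. There were 4 libraries, 1 IP and 1 input per genotype, so no value had a replicate and no test between genotypes was possible. What HKO stands for, the promoter that drives the deletion and the part of Alkbh5 that is removed are not given in the sources used here.

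N6-methyladenosine (m6A) is the most common internal modification of messenger RNA; a methyltransferase complex built on METTL3 and METTL14 writes it, ALKBH5 and FTO remove it, and YTH domain proteins read it. It is known to gather in long exons and around stop codons, and it bears on the decay, splicing and translation of the transcript. A peak in this assay is a stretch of exon in which IP reads exceed what the input accounts for, so a transcript with few reads may yield no peak whether or not it is methylated, and fewer transcripts and less methylation per transcript cannot be told apart in a list of peaks. Alkbh5 itself carried 3 peaks in FF and 0 in HKO. Of 14 hepatocyte markers 12 had a peak in at least 1 list. Among these 12 were 4 HKO-only genes (33.3%: Cyp2e1, Ttr, Ass1 and Cps1) and 1 FF-only gene (Alb). Over all genes with a peak the shares were 13.2% and 11.2%. Of 12 pancreatic acinar markers 0 had a peak.

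The sequence of most HKO-only peaks was not analysed here, because the RefSeq windows at hand cover only 300 bases around each gene start. These windows held bases of 62 of the 1486 peaks. In those 3891 bases forms of the known m6A consensus were searched on the transcript strand. The forms were GGACT together with GGACA, then the form GGACC and finally the form AGACT. In all, 18 matches were found in 15 peaks (4.63 per kb), beside 9 matches (2.31 per kb) on the other strand. For the HKO peaks of genes in both lists the densities were 5.48 and 3.90 per kb. Of the 32851 windows of 300 bases that were used, 71.1% held at least 1 of the 4 motifs and 26.1% held GGACT. A match is therefore a description of the letters and not a mapped site. The stretches of 30 bases below show such matches in peaks of HKO-only genes. They are written 5′ to 3′ on the transcript strand, from the RefSeq windows on GRCm38.p6. In each stretch 1 match is in capitals, and the Cmbl stretch holds a further AGACT in lower case.
Tmc4, chr7:3665867-3665896, minus strand: tatcaagtgatgGGACTctttcatctctgg
Wdr4, chr17:31512638-31512667, minus strand: aggcacaccgttAGACTcgtttgacagctg
Bak1, chr17:27028595-27028624, minus strand: tgccgggagctgGGACCtcctctatggtca
Gm36129, chr12:24700663-24700692, plus strand: aatctagccagcGGACTgcatgaaactcgg
Aaas, chr15:102350612-102350641, minus strand: cagacgctctccGGACTggcaagatgtgct
Cmbl, chr15:31568832-31568861, plus strand: cacttcccgtgcAGACTgagactcctccct

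These matches lie in windows around an annotated gene start, which was not required to be that of the peak's own gene. The Wdr4 peak, for example, was not centred within 500 bp of the start of Wdr4. Few HKO-only peaks reached such windows, and all of the peaks shown were of low to moderate strength. Fold enrichment and log10 q were 24.6 and -5.64 for the Tmc4 peak, 11.9 and -4.94 for the Wdr4 peak, and 19.5 and -4.20 for the Bak1 peak. They were 11 and -3.03 for Gm36129, 8.49 and -2.82 for Aaas, and 10.2 and -2.22 for Cmbl. Here and below the fold enrichment (IP over input), the p-value and the q-value of a peak are the authors', and they rank peaks within a list only.

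Enzymes and secreted proteins of the hepatocyte led the HKO-only genes by p-value. The first was Cyp2e1, the ethanol-oxidising cytochrome P450 of pericentral hepatocytes, with 1 peak of 389 bp at chr7:140774602-140774990 (GRCm38.p6, plus strand), a fold of 12.5 and a log10 p of -3810. Its centre lay 194 bp from the annotated gene end. Serpina1e, an antitrypsin gene, had 2 peaks, at chr12:103950975-103951214 (fold 5.22, log10 p -1460) and, nearer the gene end, at chr12:103946931-103947110 (fold 2.61, log10 p -298). Its neighbour Serpina1d had 1 peak of 412 bp at chr12:103767621-103768032 with a log10 p of -998 and a fold of 182, the highest fold of any HKO-only peak. The copies Serpina1a and Serpina1b had peaks in both lists. Reads may be assigned to the wrong copy, so the call for a single copy is uncertain.

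The next in order were also transcripts of hepatocytes, most of them with lower folds. Hpd, the dioxygenase of tyrosine breakdown, had a log10 p of -529 and a fold of 2.91. Cyp27a1, the mitochondrial sterol hydroxylase of bile acid synthesis, had -350 and 5.79, and Cyp3a25, a drug and steroid hydroxylase, had -335 and 4.80 in a peak of 2 exon blocks. Catalase (Cat, -291 and 2.40), transthyretin (Ttr, -282 and 1.61), the selenium carrier Selenop (-271 and 2.28) and the protease inhibitor Mug2 (-268 and 17.4) completed the first 10. Of these 10 genes 9 had 1 peak each. Further down, Lcat, which esterifies cholesterol on lipoproteins, Tdo2, which opens the tryptophan ring, and the insulin receptor adaptor Grb14 had log10 p of -199, -110 and -35.7 and folds of 5.64, 3.33 and 33.3.

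**Figure D1:**
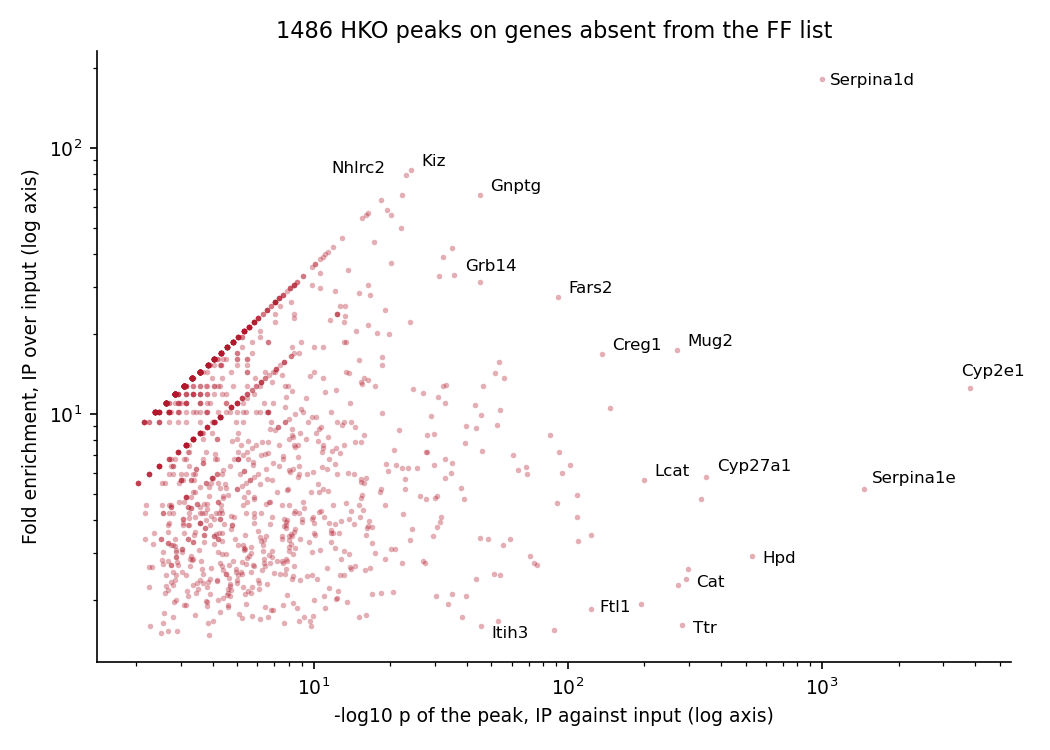
Fold enrichment (IP over input) against -log10 p for each of the 1486 HKO peaks on HKO-only genes, both on log axes, 1 point per peak. Most points lie at the left, where the median log10 q is -3.5. Cyp2e1, Serpina1e and Serpina1d stand far to the right. The straight rows of points at the upper left include pairs of values that many peaks share.

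A different set of genes had the largest folds among peaks with a q of 1e-05 or less. After Serpina1d came Kiz, a centrosome protein, at 82.3 with a log10 q of -22.9, in a peak 80865 bp from the gene end. Nhlrc2 had a fold of 78.9, and Atg16l2, a relative of the autophagy factor Atg16l1, and Gnptg, a subunit of the enzyme that tags lysosomal hydrolases, each had a fold of 66.2. Marveld2, the tricellulin of cell junctions (63.6), Tatdn3 (58.6), the diacylglycerol kinase Dgka (56.9), the polymerase phosphatase Rpap2 (56.0) and the non-coding RNA Snhg14 (56.0) followed. Among these 10 peaks the log10 q ran from -14.9 (Snhg14) to -43.3 (Gnptg), apart from Serpina1d, whose q is listed as below the smallest number the list could hold. Only the peaks of Dgka and Tatdn3, centred 105 bp and 164 bp away, lay within 1000 bp of the gene end. The Dgka peak overlaps a peak of Pmel on the opposite strand and the Snhg14 peak one of Ube3a, and reads of the 2 strands cannot be told apart if the counting did not use strand, a point on which the sources are silent.

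Most HKO-only peaks were weak by q-value, the measure of strength used below. The median fold was 9.76 (interquartile range 4.30 to 13.6, range 1.48 to 182) and the median log10 q was -3.5, against 10.6 and -10.1 for the HKO peaks of genes in both lists. A q of 1e-05 or less was reached by 504 peaks (33.9%, 95% Wilson interval 31.6 to 36.4) and a log10 q of -10 or less by 240 (16.2%). Intervals here cover counting error only. For HKO peaks of genes in both lists the share at 1e-05 was 69.0%, and for FF-only peaks in their own list it was 28.4%. At the other end, 144 HKO-only peaks (9.69%) had a log10 q above -2.

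At the threshold the weakest members were Ap2b1, an adaptor of clathrin coats, the kinase subunit Pik3cd and the pseudogene Rps15a-ps4, each with 1 peak of fold 5.52 and log10 q -1.41. Next came 4930594M22Rik and the dynein light chain Dynlt1a, at -1.50 and 9.33. Just outside the set were genes whose best FF peak barely passed. Camkk2 and Sptan1 had their best FF peaks at fold 8.62 and log10 q -1.33, with best HKO peaks at -2.81 and -6.17, and Myh11 had -1.40 in FF and -3.50 in HKO. 9430085M18Rik and Acsf3 had -1.52 in FF and -3.97 and -13.8 in HKO. Both groups were picked as the nearest to the threshold, by HKO q for the members and by FF q for the others. Their nearness to it is therefore no result.

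Many of the weak peaks had values identical to those of other peaks. Of the 1486 HKO-only peaks, 629 (42.3%) shared their exact pair of log10 p and fold with at least 9 others of the HKO list, that is, the pair occurred 10 or more times. In HKO peaks of genes in both lists the share was 19.5%, in FF-only peaks within the FF list 41.5%, and in FF peaks of genes in both lists 17.3%. Pairs with a fold of 10 or more that 50 or more HKO peaks shared formed a ladder of 17 steps, from a fold of 10.2 to 24.6. The median step was 0.85 in fold and -0.25 in log10 p, and 422 HKO-only peaks stood on this ladder. At any fold, 451 HKO-only peaks had a pair shared by 50 or more. Of the 629 peaks with a common pair 63 had a q of 1e-05 or less. Without these 629 peaks, a setting chosen after the data were seen, 857 peaks on 758 genes remained, including all 21 of the P450 genes described below.

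**Figure D2:**
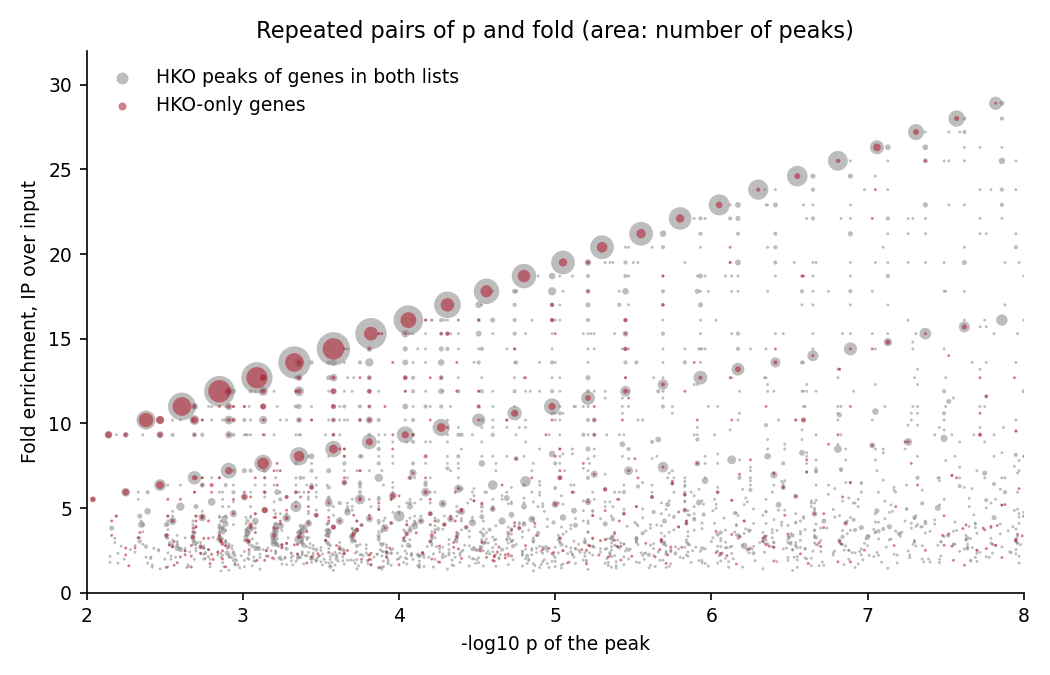
Fold enrichment against -log10 p in the weak range of the HKO list, with the area of each point giving the number of peaks that share that pair of values, for HKO-only genes (red) and genes in both lists (grey). The large points form 17 steps between folds of 10.2 and 24.6, and a second, lower row is also visible.

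HKO-only peaks were short. Their exonic length had a median of 151 bp (interquartile range 120 to 211, range 87 to 955) and summed to 270 kb, whereas HKO peaks of genes in both lists had a median of 271 bp (180 to 421) and FF-only peaks one of 151 bp (121 to 208). Lengths of 151 bp or less made up 51.7% of HKO-only peaks and 20.3% of HKO peaks of genes in both lists, and lengths over 300 bp made up 8.14% and 44.4%. Length moved with strength: HKO-only peaks with a log10 q above -2 had a median of 91 bp, those from -2 to above -5 one of 150 bp, those from -5 to above -10 one of 210 bp, and those at -10 or less one of 240 bp. In the same 4 ranges the HKO peaks of genes in both lists had medians of 91, 151, 241 and 391 bp, so the lengths were alike in the weak ranges and lay farthest apart at -10 or less. Lengths fell within 1 bp of a multiple of 30 bp in 90.8% of HKO-only peaks.

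The longest member was the 955 bp peak of Chrna4, a subunit of the neuronal nicotinic receptor, at chr2:181022490-181023444 (minus strand, fold 12, log10 q -25.7). Creg1, a secreted and lysosomal glycoprotein, and Ep400, a chromatin remodeller, each had a peak of 660 bp, with folds of 16.8 and 26.3 and a log10 q of -134 and -6.13. The ubiquitin ligase Rnf125 had one of 659 bp and F830016B08Rik one of 629 bp. Of these 5 long peaks those of Chrna4 and Creg1 were centred within 1000 bp of the gene end, at 656 bp and 598 bp.

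Nearly all of the peaks lay in 1 exon block. The block count was 1 in 1353 peaks (91.0%, 89.5 to 92.4), 2 in 122 and 3 or more in 11, so 8.95% spanned a junction, against 14.4% of HKO peaks of genes in both lists and 22.9% of FF-only peaks. The most blocks were found in Tnnt3, the fast skeletal troponin T, whose peaks had 5 blocks (150 bp in all, log10 q -1.54) and 4 blocks (358 bp, -3.35). Peaks of 3 blocks included those of the desaturase homologue Fads3 (210 bp, log10 q -8.87), of Ssb, the La protein that binds RNA polymerase III transcripts (299 bp, -12.6), and of Snhg14 (241 bp, -14.9). Strong HKO-only peaks with 2 blocks included those of Cyp3a25 (300 bp), Mug2 (270 bp), Tdo2 (150 bp) and Echdc2 (420 bp, log10 q -144).

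Most HKO-only genes had a lone peak. Of 1274 genes 1094 had 1 peak (85.9%, 83.9 to 87.7), 151 had 2, 26 had 3 and 3 had 4, a mean of 1.17 per gene. The HKO mean for genes in both lists was 1.81, with 50.7% at 1 peak and a highest count of 13, and 88.1% of FF-only genes had 1 peak. The genes with 4 peaks were Chrna4, Lrtm1 and Ehbp1. Those of Chrna4 spread over its last 7076 bp with log10 q between -3.77 and -25.7, while the 4 peaks of Lrtm1 (log10 q -1.71 to -5.89) and of Ehbp1 (-1.93 to -3.47) were weaker and spread more widely along the gene. Genes with 3 peaks included Ubb, a polyubiquitin gene, with log10 q of -11.6, -11.7 and -93.1 within its last 989 bp, and Tigit, an inhibitory receptor of T cells, with -14.2, -26.6 and -4.31. The GABA transaminase Abat (-4.11, -16.2 and -24.9), the antigen-presenting Cd1d1 (-28.9, -10.4 and -10.7), the splicing regulator Mbnl2, Pyroxd2 and Enpp5 also had 3 peaks each.

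**Figure D3:**
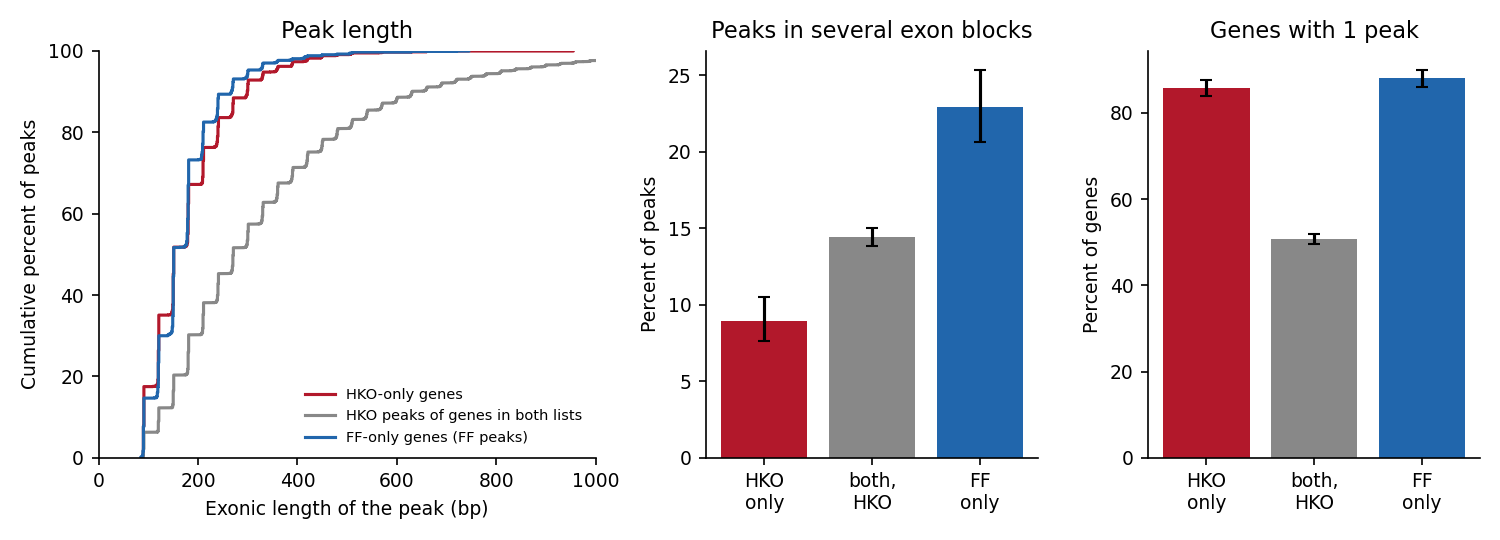
Left, cumulative percent of peaks by exonic length in bp, up to 1000 bp, for HKO-only genes, HKO peaks of genes in both lists and FF-only genes. Middle and right, percent of peaks in several exon blocks (8.95, 14.4 and 22.9) and percent of genes with 1 peak (85.9, 50.7 and 88.1) with 95% Wilson intervals. HKO-only and FF-only peaks share a median of 151 bp and differ in blocks.

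Along the gene, HKO-only peaks were concentrated at the 3′ end. Position played no part in choosing the members. Of the 1484 peaks placed on an annotated gene span, 622 (41.9%, 39.4 to 44.4) were centred within 1000 bp of the gene end and 88 (5.93%, 4.84 to 7.25) within 500 bp of the gene start. Among HKO peaks of genes in both lists these shares were 29.7% (28.9 to 30.5) and 7.55% (7.11 to 8.01), and the median distance to the gene end was 1431.5 bp for HKO-only peaks against 2240 bp. FF-only peaks had the other arrangement, with 24.7% at the end and 36.9% (34.3 to 39.7) at the start. The FF list also had more start peaks on genes shared by both lists, 12.9% in FF against 7.55% in HKO. With 1 IP per genotype, a difference between libraries and one between genotypes cannot be told apart here.

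The share at the gene end was higher in HKO-only peaks of lower q. It was 32.6% at a log10 q above -2, then 38.6%, 40.7% and, at -10 or less, 60.4% (54.1 to 66.4), while the share at the start went from 9.03% to 2.92%. The median fold of HKO-only peaks was 10.2, 11.9, 7.64 and 6.06 in these ranges, so the peaks of lowest q had the lowest median fold. For HKO peaks of genes in both lists it was 6.79, 9.33, 10.7 and 11.8. For HKO peaks of genes in both lists the end share went from 20.5% to 36.2% over the same ranges. In FF-only peaks the start share went from 32.6% to 58.8%. Examples at the end are Cyp2e1 (194 bp away), Cyp27a1 (149 bp), Hpd (119 bp), Itih3 (105 bp) and Tmem176b (90 bp). Start peaks were few among the strong members. They include the first peak of C9, centred 90 bp from its start, that of Cfi (60 bp), that of the ferritin light chain gene Ftl1 (161 bp, log10 q -191, fold 1.93) and that of Tdo2 (303 bp).

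**Figure D4:**
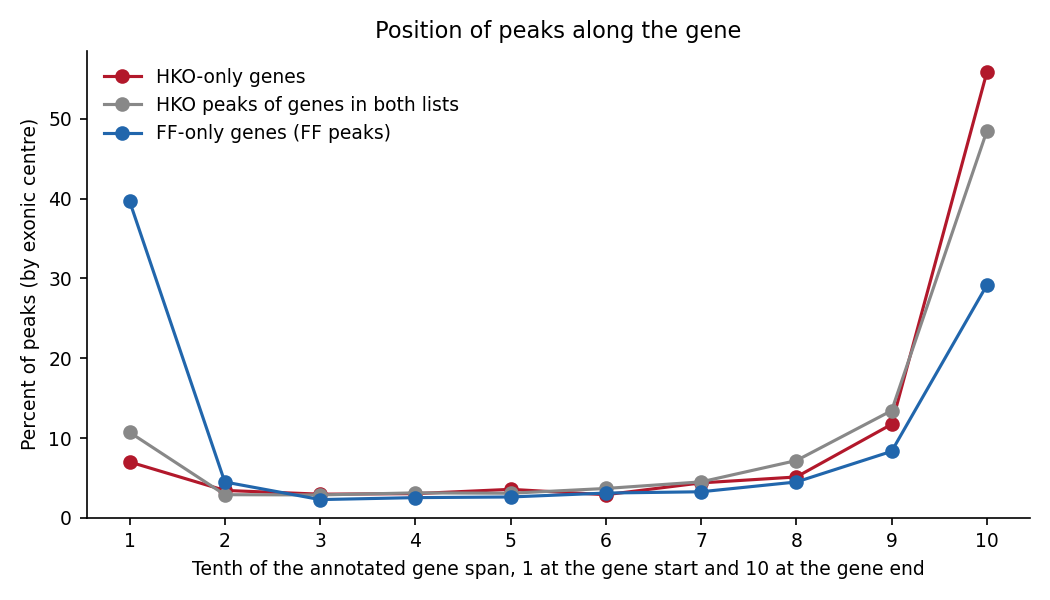
Percent of peaks in each of 10 equal parts of the annotated gene span, from the gene start (1) to the gene end (10), for HKO-only genes, HKO peaks of genes in both lists and FF-only genes. The last part holds 55.9% of HKO-only peaks, 48.5% of the HKO peaks of genes in both lists and 29.2% of FF-only peaks, and the first holds 7.01%, 10.7% and 39.7%.

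By family, cytochrome P450 genes had the highest share of HKO-only members among the families with 20 or more genes carrying a peak. Of 50 P450 genes with a peak 21 were HKO-only (42.0%, 29.4 to 55.8), 3 FF-only and 26 in both lists, beside 13.2% HKO-only over all genes with a peak. Their 27 peaks had a median length of 240 bp and a median fold of 5.70. Of these 24 had a q of 1e-05 or less, 20 were centred at the gene end and 3 at the gene start. These enzymes oxidise drugs, steroids, fatty acids and bile acid precursors in the endoplasmic reticulum or mitochondria.

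The Cyp4a genes, fatty acid hydroxylases of the omega position, were all HKO-only where they had a peak. Cyp4a12a had peaks at log10 q of -31.5 (fold 5.73) and -67.6 (fold 5.96), Cyp4a12b at -22.1 (6.28) and -29.3 (11.6), Cyp4a14 at -69.3 (2.92) and Cyp4a31 at -5.02 (7.64). The paired peaks of Cyp4a12a and Cyp4a12b had the same arrangement, one centred 792 and 763 bp and the other 104 bp from the gene end. Among genes with a peak, these 4 lie in a row on chromosome 4 with Gm52676 and Efcab14, and all 6 were HKO-only. Reads from such near-identical copies may be assigned to the wrong gene, so the call for a single copy is uncertain.

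In the Cyp2c cluster on chromosome 19 the HKO-only genes were Cyp2c29 (log10 q -121, fold 1.84), Cyp2c37 (best -11.2, 2.03), Cyp2c38 (-26.3, 7.21), Cyp2c50 (-42.0, 2.39), Cyp2c54 (best -25.4, 2.79) and Cyp2c55 (-5.63, 5.70). Cyp2c23, Cyp2c40 and Cyp2c70 had peaks in both lists. In the Cyp3a group Cyp3a25 and Cyp3a59 (best log10 q -16.5, fold 20.1) were HKO-only, and Cyp3a11 and Cyp3a13 were in both. Cyp2a22 (-16.1, 44.1), Cyp2d13 (-13.9, 4.55), the pseudogene Cyp2d37-ps (-21.5, 5.24) and Cyp2b9 (best -4.36, 19.5) were HKO-only as well, and their relatives Cyp2a12, Cyp2d10 and Cyp2b10 had peaks in both lists. In these groups of related genes, too, reads may be assigned to the wrong copy, so the call for a single gene is uncertain. Members with other substrates were Cyp26a1, which degrades retinoic acid (-11.2, 12.3), the oxysterol hydroxylase Cyp39a1 (-7.43, 3.69) and Cyp4v3 (-11.3, 2.16).

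The family of conjugation enzymes and esterases also held, by symbol, dehydrogenases and reductases (Adh, Aldh and Akr genes). It had 16 HKO-only genes of 79 with a peak (20.3%, 12.9 to 30.4) and 8 FF-only. The strongest were the carboxylesterase Ces1f (log10 q -121, fold 3.51), the glutathione transferase Gstt1 (-88.4, 4.62) and the alcohol dehydrogenase Adh5 (-57.4, 3.39). Other Ces1 genes (Ces1b, Ces1c, Ces1e and Ces1g) had peaks in both lists. Over a list of xenobiotic genes, 7 of 26 with a peak were HKO-only (26.9%) and 0 FF-only, beside 13.2% and 11.2% over all genes. The HKO-only ones were Cyp2e1, Cyp3a25, Cyp2c29, Cyp2c50, Ces2a (-11.1, 2.01), Gsta3 (-11.0, 3.87) and the quinone reductase Nqo1 (-14.0, 28.4). All but Nqo1 were also counted in the P450 family or among the conjugation enzymes and esterases.

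Among secreted hepatocyte proteins with a peak 2 (Alb and Igfbp2) were FF-only, beside 11.2% over all genes. Of the 23 genes with a peak 6 were HKO-only (26.1%), beside 13.2% over all genes. Besides Serpina1e, Serpina1d and Ttr these were the growth factor Igf1 (best log10 q -71.6, fold 2.76), the growth factor activator Hgfac (-53.7, 3.21) and Itih3, a hyaluronan-binding chain (-43.9, 1.60). The Serpina1 copies Serpina1a and Serpina1b were in both lists, each with 1 peak in FF and 2 in HKO. Mug2 was HKO-only while its copy Mug1 was FF-only (log10 p -31.6, fold 3.13). Here too reads may be assigned to the wrong copy.

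Coagulation and complement genes gave 5 HKO-only of 32 with a peak (15.6%), near the 13.2% over all genes, and 0 FF-only beside 11.2%. C6 (log10 q -7.33, fold 6.22), C8g (-9.43, 8.77) and C9 (-12.9 and -36.9) encode parts of the membrane attack complex, Cfi (-8.47, 9.33) is a complement inhibitor and Pros1 (best -4.23, 1.77) is the anticoagulant protein S. In amino acid and urea metabolism 4 of 32 were HKO-only (12.5%; Hpd, Tdo2, Ass1 and Cps1) and 5 were FF-only. The urea cycle enzymes Ass1 and Cps1 had a log10 q of -32.4 (fold 1.93) and -3.97 (2.79).

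In 4 lists of lipid and sterol genes the HKO-only share ran from 13.6% to 19.2% of the genes with a peak, beside 13.2% over all genes, and it was 6.67% for fatty acid oxidation. Of 26 cholesterol genes with a peak 5 were HKO-only and 2 (Srebf2 and Tm7sf2) FF-only. The HKO-only ones were the mevalonate enzymes Mvk (log10 q -4.76), Mvd (-3.77) and Idi1 (-1.97), the sterol enzyme Nsdhl (best -38.0, fold 7.76) and the SREBP escort Scap (-17.8, 2.86). For bile acids 4 of 23 were HKO-only and 0 FF-only: Cyp27a1, the phospholipid exporter Abcb4 (-26.4, 4.78), the receptor Fgfr4 (-10.9, 3.56) and the reductase Akr1d1 (-4.96, 4.24). Lipoprotein transport had as many HKO-only genes, 3 of 20 (Lcat, Apoc2 at -52.4 and Mttp at -4.15), as FF-only ones (Apoa2, Apoc3 and Apoc4). Lipogenesis also had 3 of each among 22, with Fads1, Nr1h2 and Srebf1 HKO-only and Gpam, Dgat1 and Plin2 FF-only.

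The signalling lists had HKO-only shares of up to 16.1%, beside 13.2% over all genes. The EGF receptor and mTORC1 list had 5 of 31 and 2 FF-only (Map2k1 and Rheb). Among the HKO-only genes were the kinase Mtor at a log10 q of -2.40, the ubiquitin ligase Cbl at -2.29, the mTORC1 inhibitor Tsc2 at -6.81 and Fnip1, a partner of folliculin, at -10.3. The insulin list had 2 of 18 (11.1%), Grb14 (-34.2) and the liver glycogen synthase Gys2 (-4.87), and 1 FF-only (Akt1). Glucagon and gluconeogenesis had 2 of 21 (9.52%), the glucose-6-phosphate carrier Slc37a4 (-15.9) and the protein kinase A subunit Prkar1a (-8.43), and 0 FF-only. Interferon genes had 3 of 22 (13.6%), the RNA sensors Dhx58 (-31.5) and Ifih1 (-4.02) and the factor Irf7 (best -18.4), and 0 FF-only. Fatty acid oxidation (Cyp4a14, of 15), acute phase signalling (Irf1, of 25), immediate early genes (Klf6, of 23), autophagy and lysosome (Lamp2, of 23), Wnt and zonation (Tcf7l1, of 21) and hepatocyte transcription factors (Esr1, of 22) each had 1. The FF-only genes of these lists were as many or more in acute phase signalling (3: Tyk2, Stat3 and Saa1), immediate early genes (2: Ier3 and Mt1), autophagy (1: Atg3) and fatty acid oxidation (1: Fgf21), and 0 in Wnt and zonation and in hepatocyte transcription factors.

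Of the m6A machinery itself, Fto was HKO-only, with a peak of 508 bp at chr8:91409309-91409816 (log10 q -13.3, fold 5.94), and so was Mettl14, with one of 90 bp (-1.83, 3.39). Of the 10 m6A writer genes with a peak Mettl14 was the HKO-only one (10%, beside 13.2% over all genes). Mettl5 was FF-only and 8 writers were in both lists. All 10 m6A readers with a peak and all 17 clock genes with a peak were in both lists. The HKO-only markers of other liver cells were Mrc1 of Kupffer cells (-4.16) and Col1a1 (-6.58) and Dcn (best -4.20) of stellate cells. Spp1 of cholangiocytes (-6.43) and S100a9 of leukocytes (-2.29) were also HKO-only. In the same cell groups Lyz2 (Kupffer cells), Ecm1 (stellate cells), Muc1 (cholangiocytes) and Itgax (leukocytes) were FF-only. All 12 endothelial markers with a peak were in both lists. Over these marker lists of other liver cells, 5 of 40 genes with a peak were HKO-only and 4 were FF-only. Over all genes with a peak the shares were 13.2% and 11.2%. Of 10 erythroid markers the 2 with a peak, the beta-globin genes Hbb-bs and Hbb-bt, were both FF-only. The part of these markers in other results was not tested.

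Over all genes with a peak 13.2% were HKO-only and 11.2% FF-only. For each family in this paragraph the 95% interval of the HKO-only share covered 13.2%. Genes of DNA repair and replication had 10 HKO-only of 46 with a peak (21.7%, 12.3 to 35.6) and 1 FF-only. Their 12 peaks each lay in 1 block, 8 of them at the gene end, and 2 had a q of 1e-05 or less: Xrcc6, a DNA end-binding subunit of the Ku complex (-21.1, fold 6.26), and Mcm5, a subunit of the replicative helicase (-8.82, 30.5). Further members were Fancm, Brca2, Pole, Pola2, Mcm6, Rad54l and Xrcc3. Solute carriers, which move small molecules over membranes, had 31 of 190 (16.3%, 11.7 to 22.2) and 9 FF-only, led by the phosphate carrier Slc25a3 (-108, 4.96), Slc35d2 (-26.5, 8.30) and Slc37a4. The bile acid carrier Slc10a2 had 3 peaks (best -5.49). Ubiquitin ligases and deubiquitinases had 27 of 203 (13.3%) and 13 FF-only, and chromatin modifiers 16 of 106 (15.1%) and 7 FF-only, with Kdm5d (-15.2, 30.5), Kmt5a (best -14.6, 13.6) and the deacetylase Hdac3 (-12.1, 2.48) first.

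Families below the background of 13.2% included zinc finger proteins, with 20 HKO-only of 329 (6.08%, 3.97 to 9.20) and 19 FF-only, of which 1 HKO-only peak, that of Zfp788, had a q of 1e-05 or less. Respiratory chain and ATP synthase genes had 6 of 56 (10.7%) against 22 FF-only (39.3%), and proteasome subunits 2 of 27 against 8 FF-only (29.6%). Over all genes with a peak 11.2% were FF-only. Protein kinases and phosphatases had 16 of 172 (9.30%) and splicing factors and RNA helicases 11 of 122 (9.02%). Mitochondrial ribosomal proteins had 8 of 61 (13.1%), with 8 of their 9 peaks at the gene end, led by Mrpl58 (-61.7, 6.15), Mrpl4 (-27.6, 9.81) and Mrpl33 (-15.2, 3.79). Above it, cytosolic ribosomal proteins had 5 of 22 (22.7%, 10.1 to 43.4), a group in which pseudogene copies such as Rps6-ps4 (-29.9, 33.1) cannot be told apart from their parent genes with certainty. The 6 major urinary protein genes with a peak were in both lists.

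**Figure D5:**
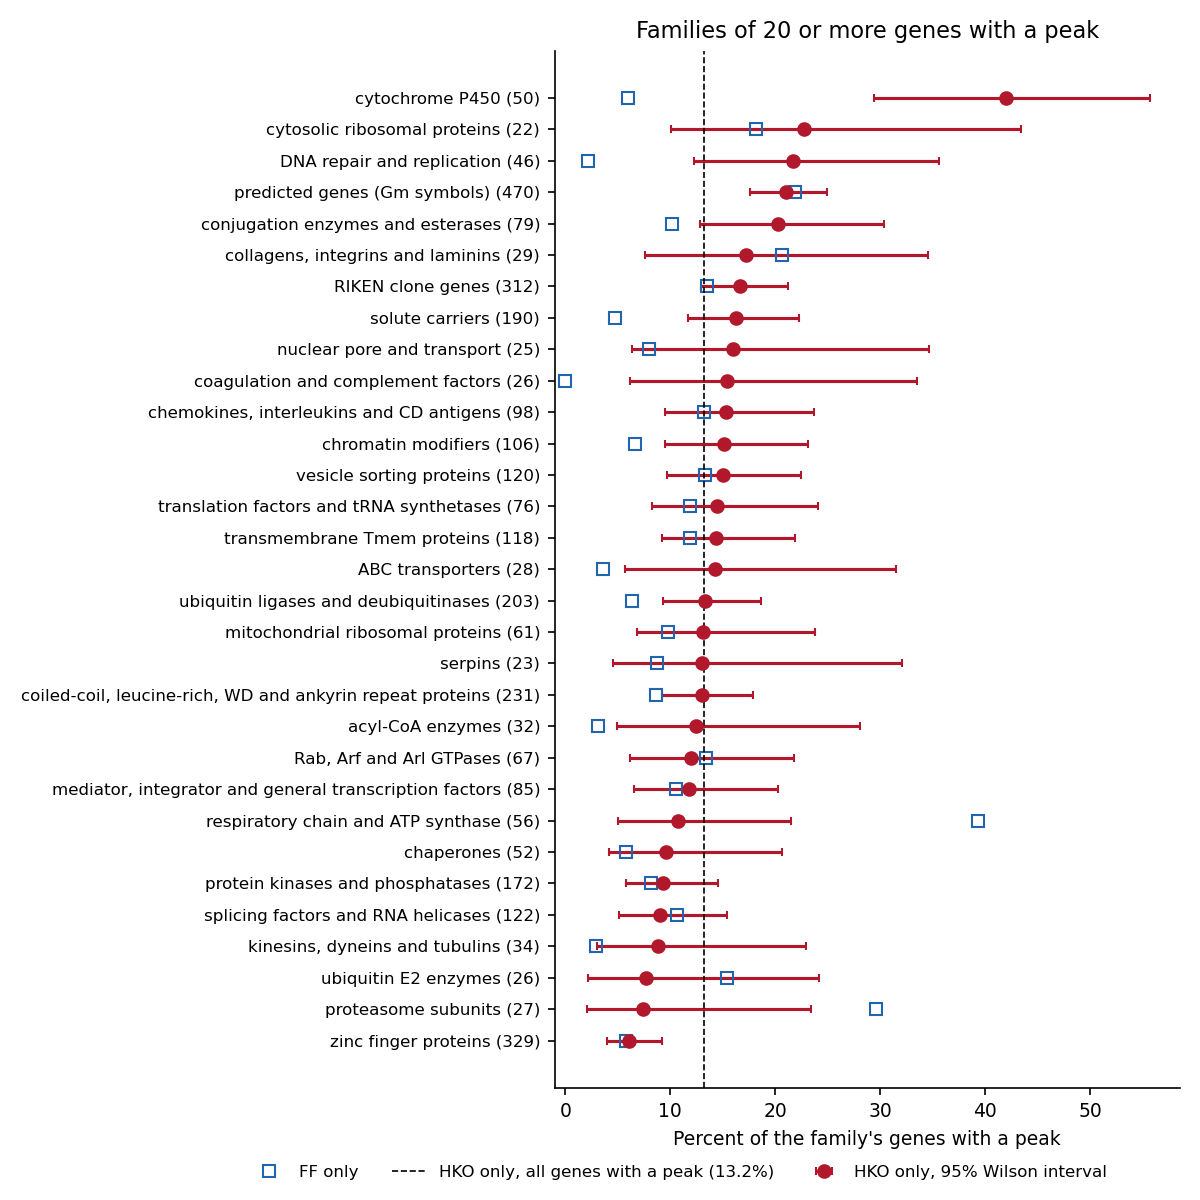
Percent of genes with a peak that were HKO-only (red, with 95% Wilson intervals) and FF-only (blue squares) for each family with 20 or more such genes, the number in brackets. The dashed line marks 13.2%, the share over all genes. Cytochrome P450 genes stand at 42.0%, and zinc finger proteins at 6.08%.

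Non-coding and predicted genes made up a part of the set. By RefSeq biotype 88.1% of HKO-only genes were protein-coding and 127 (9.98%) were long non-coding RNA genes, against 94.6% and 5.0% of genes in both lists and 85.8% and 13% of FF-only genes. Over all genes with a peak 13.2% were HKO-only and 11.2% FF-only. Predicted genes with Gm symbols had 99 HKO-only (21.1%) and 103 FF-only (21.9%) of 470, and RIKEN clone genes 52 (16.7%) and 42 (13.5%) of 312. Their peaks were weak, with a q of 1e-05 or less in 23 of 111 and 11 of 54. The strongest were the pseudogenes Gm15772 (log10 q -83.1, fold 8.30) and Gm5424 (-59.1, 7.03) and the non-coding gene Gm38733 (-73.4, 2.70). The Gm38733 peak lies on the opposite strand of a peak of Actb, the cytoplasmic actin gene, which was also HKO-only (-108, 4.08).

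Such overlaps with an HKO peak on the opposite strand involved 60 HKO-only peaks (4.04%), beside 4.05% of the HKO peaks of genes in both lists. In 24 of the 60 the other gene was HKO-only too. Phf14 and Gm6578 both had a log10 q of -2.61 and a fold of 8.06, Ms4a6c and BE692007 both -7.61 and 31.4, and Fam83f and A430088P11Rik both -1.99 and 10.2. Whether the authors counted by strand is unstated, and without strand the reads of such pairs cannot be told apart. Only 1 HKO-only peak, that of Sap25, overlapped an FF peak of another symbol on the same strand (Gm20605), and 8 did so on either strand.

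HKO-only genes were found on every chromosome. On autosomes their share of genes with a peak ran from 10.7% (chromosome 17) to 16.4% (chromosome 14), and on the X chromosome it was 43 of 219 (19.6%, 14.9 to 25.4). On the Y chromosome the demethylase genes Kdm5d (1 peak) and Uty (2 peaks) were HKO-only, and Eif2s3y had 2 peaks in each list. Reads of Y-linked genes were thus present in both pools. Ordering the genes with a peak along each chromosome gave 138 runs of 2 adjacent HKO-only genes, 29 of 3, 1 of 4, 1 of 6 (the Cyp4a row) and 1 of 7. The run of 7, on chromosome 11, was Irf1, the carnitine and organic cation carriers Slc22a5, Slc22a21 and Slc22a4, Fnip1, Rapgef6 and Lyrm7, with best log10 q between -2.14 (Slc22a21) and -14.4 (Lyrm7, fold 54.3).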

How the data were processed

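The deposited data were 2 lists of m6A peaks. Per the series design text, the authors ran exomePeak 2.16.0 on every IP with the matching input as background and kept peaks under a q-value of 0.05. GRCm38.p6 is the build in the submitters' processing notes, which also list BWA 0.7.12, fastp 0.19.11 and HOMER 4.9.1. The deposited lists give each peak's p-value, scores that are the log10 of p and of q, the fold (ratio) of IP over input and the number of exon blocks. No read totals were used, so depth is unknown. The labels and the design text name different antibodies and library kits.

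Exonic length was the sum of block sizes. Positions came from RefSeq gene spans (GRCm38.p6), where 1272 of 1274 symbols matched. Families were set by symbol pattern (35) and lists by hand (30: 22 of pathways and 8 of cell markers). Members and lists were chosen with earlier results of these data known. Named genes were the 10 of smallest p, the 10 of largest fold at a log10 q of -5 or less, the 10 with most peaks, the 5 with most blocks, the 5 longest, list members, the 3 strongest of each family with 3 or more members, and the 5 nearest the threshold on each side. Members of gene clusters, gene copies, opposite-strand pairs and chromosomal runs were named after their values were seen, as were Ftl1, Slc10a2, other family members, and Wdr4, Tmc4, Bak1, Aaas, Cmbl and Gm36129 for their sequences. The work used matplotlib 3.10.9, scipy 1.17.1, numpy 2.4.6 and pandas 2.3.3 under Python 3.11.15, and the overlap and position steps were tested on simulated data.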

Additional observations from a re-analysis of the deposited data

How the results depend on the processing

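Membership rests on 1 list per genotype at the authors' threshold, depth is unknown, and absence of a peak does not show absence of m6A. No paired analysis was possible because each genotype had a lone pool and the labels number no replicates.

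With the HKO list held to a log10 q of -5 or less and the FF list whole, 462 genes with 504 peaks were left, with a median length of 232.5 bp, 88.1% in 1 block, 91.3% of genes with 1 peak, 50.1% of peaks at the gene end and 3.78% at the start. With both lists held to that limit there were 1154 genes, of which 462 were members at the authors' threshold and 692 had a weaker FF peak. The median was then 241 bp, with 88.3% in 1 block, 88.9% of genes with 1 peak and 3.70% of peaks at the start. Without peaks whose pair of values occurred 10 or more times (chosen after seeing the data, as were 2 further settings below), 758 genes and 857 peaks gave a median of 180 bp, 89.0% in 1 block, 88.0% of genes with 1 peak and 48.4% of peaks at the end. The median was 179 bp at a fold of 2 or more and 180 bp with lists of equal length. A 500 bp window put 28.2% of peaks at the gene end, and a 200 bp window 3.64% at the start. In the other 60 recalculations counts stayed within 1.5 times and shares and medians within their 95% interval; these included symbol synonyms (0 symbols changed), overlaps with FF peaks of another symbol and, among the settings added later, dropped symbol suffixes and opposite-strand overlaps. Between 20 and 22 P450 genes were members under the 11 settings.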
